A study of Canis lupus familiaris with 12 samples.

Results

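The striated muscle miRNAs cfa-miR-1, cfa-miR-133a, cfa-miR-133b, cfa-miR-133c, cfa-miR-206, cfa-miR-208a, cfa-miR-208b and cfa-miR-499, written below without the prefix of the dog, were followed in a canine mammary gland tumor line and in its tamoxifen-resistant derivative. They were chosen by their exact names in the table of mature canine miRNAs, 8 of the 453 miRNAs listed there. This choice was made with earlier results of these data known. CHMm is a line of canine mammary gland tumor cells from a metastatic lesion, and CHMmTAM is the resistant line derived from it. Resistance was built up over 10 months with rising concentrations of tamoxifen (TAM), up to 10 μM, followed by 1 month at that concentration and 1 week without drug. The paper describes a phenol-red-free medium with charcoal-stripped serum and hydroxytamoxifen, and does not say for each line which of these applied. The study sequenced small RNAs in 3 libraries of each line, and also longer RNAs, which were not analysed here. CHMmTAM is a single derived line, so TAM resistance and other differences that arose over the months of culture cannot be told apart. Neither the labels nor the methods state that the 3 libraries of a line came from separate cultures, and the p-values below therefore measure the spread between these libraries, which may be technical.

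The miRNAs of this set are best known from heart and skeletal muscle. miR-1 and miR-133 are transcribed together from paired genes that the muscle transcription factors SRF, MEF2 and MyoD switch on. miR-1 favors differentiation of myoblasts, whereas miR-133 has been tied to their proliferation. miR-206 is a close relative of miR-1 that belongs to skeletal muscle, and its gene is paired with that of miR-133b. miR-208a, miR-208b and miR-499 are processed from introns of myosin heavy chain genes, and miR-208 and miR-499 share their seed, the stretch by which a miRNA recognizes its targets.

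The dog annotation placed the 8 miRNAs in 9 genes. In RefSeq's annotation of the dog assembly UU_Cfam_GSD_1.0, MIR1-2 and MIR133A were immediate neighbors inside the span of MIB1, the gene of a ubiquitin ligase of Notch signaling, and inside that of the lncRNA LOC119872603. MIR1-1 and MIR133C formed the other pair, which lay inside no annotated gene. The mature miR-1 could therefore come from either pair, while miR-133a was named for the MIB1 pair and miR-133c for the intergenic pair. MIR206 and MIR133B were neighbors too, with IL17A as the next gene after MIR133B, and lay inside no gene. MIR208A lay within MYH6, the alpha myosin heavy chain gene of the heart, and MIR208B within MYH7, the gene of the beta chain. MIR499 lay within MYH7B. In all, 5 of the 9 genes lay within another gene. The submitters' processing notes name the build CanFam3.1, which is not that of this annotation, and so only names and neighbors are given.

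Mature sequences of these miRNAs were not used here. The only sequence of the study read for one of them is the DNA primer that its qRT-PCR list gives for miR-133a. It is shown because it is listed under the name of one of the miRNAs described here. It has 25 bases and is written from its 5′ end, without capitals because no part of it was singled out.
miR-133a primer: tgctttgctagagctggtaaaatgg
Whether this primer matches the mature miR-133a counted here, and whether it also detects miR-133b or miR-133c, was not tested.

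Library totals lay between 7512659 and 11450062 counts for CHMm, and between 8137736 and 12482211 for CHMmTAM. Levels are given as CPM, counts relative to the library total on the common scale of 1000000, corrected with the TMM factors of edgeR, which lay between 0.973 and 1.02. A count of 3 in a library, the smallest taken as detectable, corresponds to between 0.240 and 0.399 CPM of all counts, a limit that covers counting error only. Of the 453 miRNAs, 284 reached 10 counts when the 6 libraries were added up, and these were tested in edgeR (quasi-likelihood, QL). This test estimates the spread of each miRNA with help from all tested miRNAs, so its p-values do not rest on that miRNA's 6 values alone. P-values were adjusted after Benjamini and Hochberg over all 284 (FDR). A miRNA was called different at FDR below 0.05 together with a log2 fold change above 1 or below -1.

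4 of the 8 muscle miRNAs, miR-1, miR-133a, miR-133c and miR-133b, were higher in CHMmTAM past both thresholds, by fitted log2 fold changes between 1.79 and 2.26. The study itself lists these 4 as upregulated in its comparison of the same lines, so their rise is not an independent result. miR-499 was the only abundant member, and it was also higher, though by a log2 fold change of 0.48. miR-206 and miR-208b were at 3 counts or fewer in every library, and miR-208a was counted in none. The background share is 5.99% of the 284 tested miRNAs past both thresholds in this direction, against 4 of the 5 muscle miRNAs that could be tested. None of the 5 was lower past both thresholds, where the background is 5.28%. At FDR alone all 5 passed and were higher, against 25.4% of all tested miRNAs higher and 44% in either direction. For each of the 5, the 3 CHMmTAM values lay above the 3 CHMm values. Such a separation, in either direction, held for 51.8% of all tested miRNAs. Because the 8 were chosen with earlier results of these data known, these shares describe the members and are no test of them. miR-133a and miR-133c may also share reads, and so may not count as separate members. In these bulk libraries, more cells carrying a miRNA and more of it per cell cannot be told apart.

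**Figure D1:**
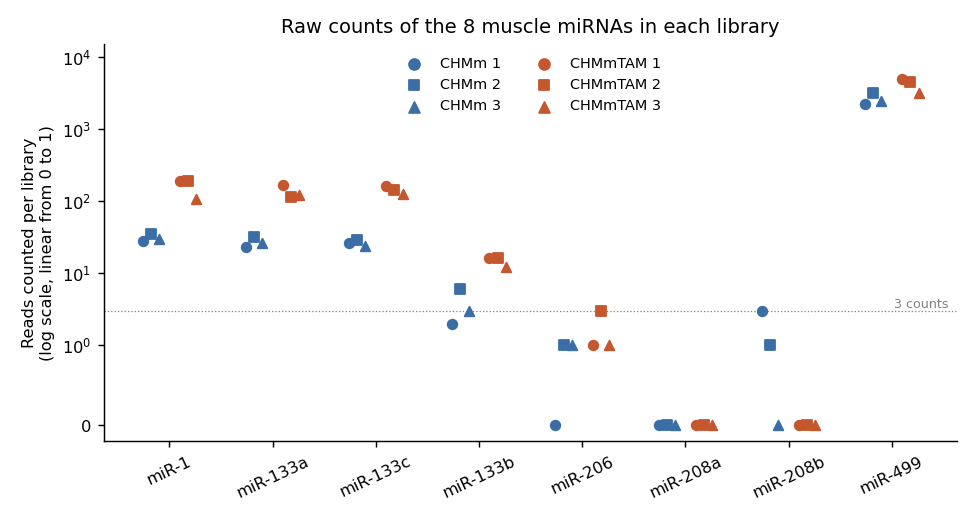
Raw reads counted on each of the 8 muscle miRNAs (x axis) in each of the 6 libraries (y axis, log scale that is linear from 0 to 1), with CHMm in blue, CHMmTAM in orange and a dotted line at 3 counts. miR-1, miR-133a and miR-133c rise from between 23 and 35 counts to between 107 and 192, miR-499 stands far above all others in both lines, and miR-206, miR-208a and miR-208b stay at or below 3 counts.

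miR-1, the regulator of myoblast differentiation, was counted 28, 35 and 30 times in CHMm, against 188, 192 and 107 times in CHMmTAM. These are 3.83, 3.01 and 3.35 CPM against 14.7, 17.4 and 13.4 CPM, with means of 3.40 ± 0.410 (SD, n = 3) and 15.2 ± 2.02 (SD, n = 3). The lines did not overlap, and the lowest CHMmTAM library stood well above the highest CHMm library. The log2 fold change was 2.19 ± 0.18 (SE, edgeR QL FDR = 6.58e-30). As shares of all counts, the 95% Wilson intervals reached at most 5.39 CPM in CHMm and began at 10.9 CPM or more in CHMmTAM. Even so miR-1 was a minor miRNA in both lines, ranking 180 of 284 by mean CPM in CHMm and 147 in CHMmTAM.

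miR-133a, named for the gene next to MIR1-2 in MIB1, was read 23, 32 and 26 times in CHMm, against 164, 113 and 121 times in CHMmTAM. Scaled, these were 3.14, 2.76 and 2.91 CPM against 12.8, 10.2 and 15.2 CPM. The CHMm libraries were close together and the CHMmTAM libraries more spread, without overlap between the lines. The log2 fold change was 2.11 ± 0.20 (SE, edgeR QL FDR = 9.38e-25).

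miR-133c, named for the intergenic pair with MIR1-1, was read 26, 29 and 24 times in CHMm, against 163, 144 and 125 times in CHMmTAM. The scaled values were 3.56, 2.50 and 2.68 CPM in CHMm and 12.8, 13.1 and 15.7 CPM in CHMmTAM. They lay in the same range as those of miR-133a in either line. The log2 fold change of miR-133c was 2.26 ± 0.19 (SE, edgeR QL FDR = 1.09e-28). By the size of the change, miR-133c ranked 4, miR-1 ranked 6 and miR-133a ranked 8 among the 17 miRNAs higher past both thresholds.

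Whether miR-1, miR-133a and miR-133c moved by one factor was asked with ratios inside each library, which need no scaling. The ratio of miR-133a to miR-1 was 0.821, 0.914 and 0.867 in CHMm and 0.872, 0.589 and 1.13 in CHMmTAM. The CHMmTAM libraries spanned a wider range, which took in that of the CHMm libraries. The mean log2 ratio differed by -0.055 between CHMmTAM and CHMm (exact two-sided permutation test, p = 0.9, where 3 against 3 libraries cannot give less than 0.1). The sign of that difference rested on CHMmTAM replicate 2, without which it was 0.20 (exact permutation p = 0.4). The ratio of miR-133c to miR-133a was 1.13, 0.906 and 0.923 in CHMm and 0.994, 1.27 and 1.03 in CHMmTAM, close to 1 in every library and with overlap between the lines. Its mean log2 value differed by 0.16 (exact two-sided permutation test, p = 0.4). A difference between the lines was thus not detectable in either ratio at these counts. The ratios cannot compare the activity of the intergenic pair with that of the MIB1 pair. miR-1 could come from either pair, and miR-133a and miR-133c may share reads. miR-133a and miR-133c are near relatives, and how the authors' counting divided reads that could belong to either is not given in the sources used here. Taken as 1 miRNA with summed counts, they were higher by a log2 fold change of 2.19 ± 0.15 (SE, edgeR QL FDR = 2.70e-44).

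**Figure D2:**
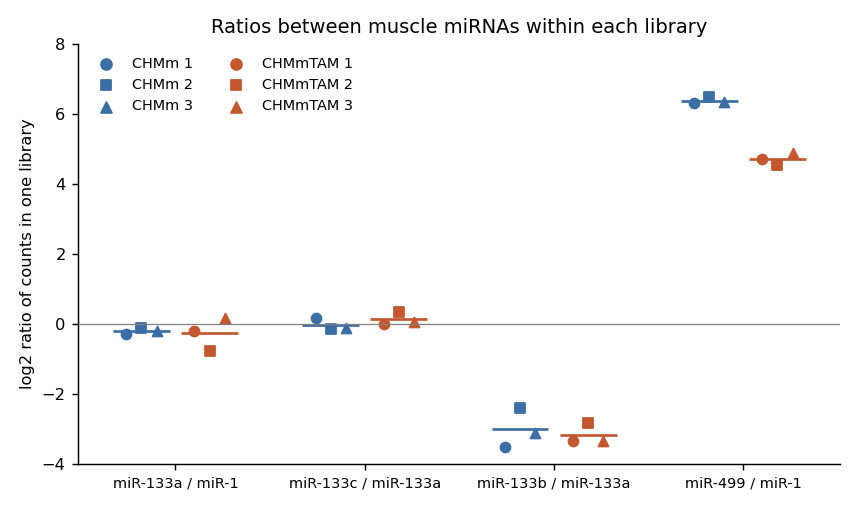
Log2 ratio of the counts of 2 muscle miRNAs within one library (y axis) for 4 pairs (x axis), with 1 point per library and lines at the mean of each line of cells. The ratios among miR-1 and the miR-133 miRNAs overlap between CHMm (blue) and CHMmTAM (orange), whereas the log2 ratio of miR-499 to miR-1 lies between 6.32 and 6.50 in CHMm and between 4.53 and 4.87 in CHMmTAM.

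The counts of miR-1, miR-133a and miR-133c together were 77, 96 and 80 in CHMm and 515, 449 and 353 in CHMmTAM. Their summed level was 9.25 ± 1.16 CPM in CHMm, against 41.8 ± 2.22 CPM in CHMmTAM (SD of 3 libraries each), a 4.52-fold difference. The sums of the 2 lines did not overlap (exact two-sided permutation test, p = 0.1, the smallest value that 3 against 3 can give). CHMmTAM replicate 3, the library with the lowest level of miR-1 in its line, had the highest levels of miR-133a and miR-133c there, so the members did not follow one order over the libraries.

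The second pair, miR-206 and miR-133b, was close to the detection limit. miR-133b was read 2, 6 and 3 times in CHMm, against 16, 16 and 12 times in CHMmTAM, which is 0.375 ± 0.126 CPM (SD, n = 3) against 1.40 ± 0.134 CPM (SD, n = 3). Each CHMmTAM library was higher than each CHMm library, but their Wilson intervals overlapped, as 0.240 to 1.14 CPM in CHMm replicate 2 and 0.789 to 2.08 CPM in CHMmTAM replicate 1. The log2 fold change was 1.79 ± 0.54 (SE, edgeR QL FDR = 0.00293). Tested against a 2-fold change instead of none, with edgeR's glmTreat, the FDR was 0.278 and the call was lost. The ratio of miR-133b to miR-133a was between 0.0870 and 0.188 in CHMm and between 0.0976 and 0.142 in CHMmTAM, so that miR-133b took a similar small share beside miR-133a in both lines. Whether reads of the more abundant miR-133a or miR-133c were counted on miR-133b was not tested.

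miR-206, the skeletal muscle relative of miR-1, was read 0, 1 and 1 times in CHMm, against 1, 3 and 1 times in CHMmTAM. With 7 counts in all it was not tested, and no fold is given because every library was at or below 3 counts. The gene partner of miR-133b was thus at or near 0 in CHMmTAM, where miR-133b had 12 counts or more. Summed, the pair reached 0.441 ± 0.165 CPM in CHMm, against 1.56 ± 0.205 CPM in CHMmTAM (SD of 3 libraries each, exact two-sided permutation test, p = 0.1), nearly all of it from miR-133b.

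**Figure D3:**
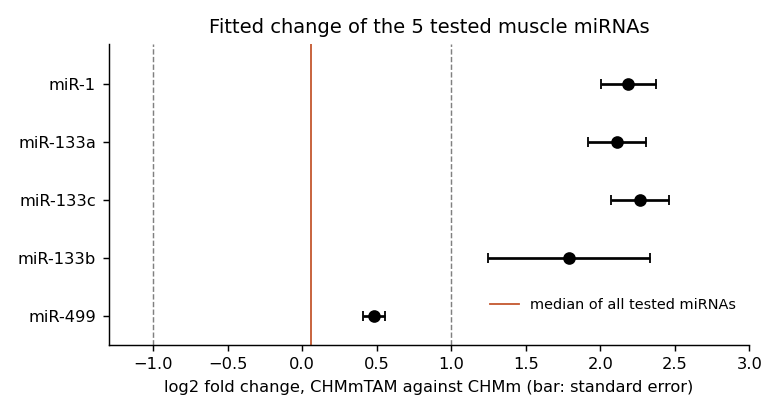
Fitted log2 fold change of CHMmTAM against CHMm (x axis) for the 5 muscle miRNAs that were tested (y axis), with bars of 1 standard error, dashed lines at -1 and 1 and an orange line at 0.06, the median of all 284 tested miRNAs. miR-1, miR-133a and miR-133c lie between 2.11 and 2.26, miR-133b at 1.79 has the widest error, and miR-499 lies at 0.48.

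The myosin-intron miRNAs were divided in another way. miR-499, the miRNA of MYH7B, was read 2242, 3157 and 2416 times in CHMm, against 4973, 4429 and 3136 times in CHMmTAM. It made up between 96.5% and 96.8% of all muscle miRNA counts in CHMm and between 89.5% and 90.4% in CHMmTAM. Its level was 307, 272 and 270 CPM in CHMm and 389, 402 and 394 CPM in CHMmTAM, with means of 283 ± 20.6 (SD, n = 3) and 395 ± 6.16 (SD, n = 3). All CHMmTAM libraries were above all CHMm libraries, 1.40-fold on average. The log2 fold change of 0.48 ± 0.07 (SE, edgeR QL FDR = 3.84e-10) passed the FDR threshold but not the fold threshold. Its size depended on the scaling. Under upper-quartile normalization, which shifted the median over all tested miRNAs from 0.06 to -0.18 in log2 fold change, it was 0.24 (edgeR QL FDR = 0.00388). miR-499 ranked 79 of 284 by mean CPM in CHMm and 77 in CHMmTAM.

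miR-208a, the miRNA of the cardiac gene MYH6, had 0 counts in all 6 libraries, where the limit of 3 counts is 0.399 CPM in the shallowest library and 0.240 CPM in the deepest, and the upper bounds of the 95% Wilson intervals are 0.511 and 0.308 CPM. miR-208b, the miRNA of MYH7, was read 3, 1 and 0 times in CHMm and in no CHMmTAM library. These counts are at or below the limit, and no direction is read from them. Within this group of hosts, reads thus came almost wholly from the MYH7B miRNA, in both lines. Whether MYH7B, MYH6, MYH7 or MIB1 mRNA differed between the lines was not analysed here.

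The abundant miR-499 and the scarce miR-1 changed by unlike factors. There were 80.1, 90.2 and 80.5 reads of miR-499 for each read of miR-1 in CHMm, and 26.5, 23.1 and 29.3 in CHMmTAM. The lines did not overlap, and the mean log2 ratio was lower by 1.67 in CHMmTAM (CHMmTAM minus CHMm of -1.67). This ratio was chosen after the values were seen and is given without a test. All 8 miRNAs together took between 0.0284% and 0.0309% of the counts in CHMm and between 0.0430% and 0.0442% in CHMmTAM.

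**Figure D4:**
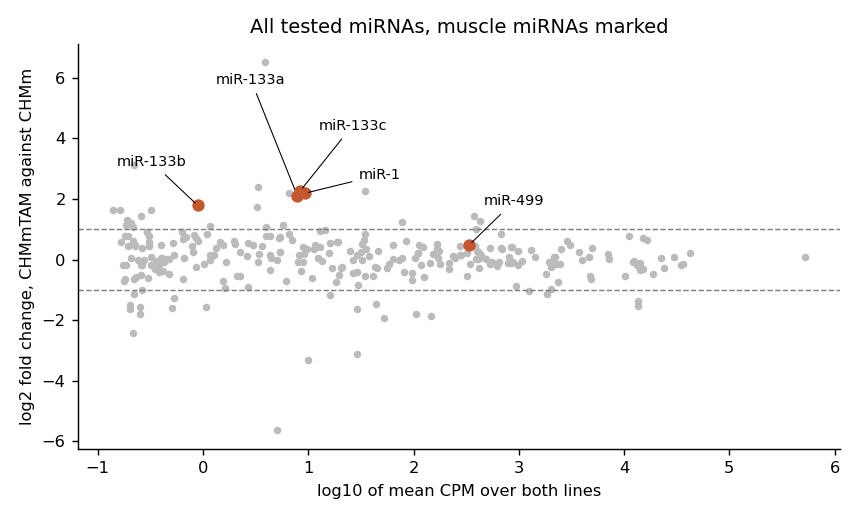
Fitted log2 fold change of CHMmTAM against CHMm (y axis) against the log10 of the mean CPM over both lines (x axis) for the 284 tested miRNAs, with the 5 muscle miRNAs in orange and dashed lines at -1 and 1. miR-1, miR-133a, miR-133b and miR-133c lie above the upper line among the scarcer miRNAs, and miR-499 lies between the lines among the more abundant ones.

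The libraries were also read for miRNAs that act in myogenesis without being limited to muscle. The lists here and in the next paragraph were drawn up with earlier results of these data known, and none was tested as a set. Of 14 miRNAs known to promote muscle differentiation, all were tested, and 2 were higher in CHMmTAM past both thresholds while 0 were lower, beside 5.99% higher and 5.28% lower among all tested miRNAs. These were miR-486, which is enriched in muscle and in red blood cells, at a log2 fold change of 2.40, and miR-181a, which acts on HOXA11 in differentiating myoblasts, at 1.26. At FDR alone 3 were higher and 4 lower, 7 of 14 beside 44% of all tested miRNAs, and the list had a median log2 fold change of -0.06 beside 0.06 for all tested miRNAs. Its most abundant member was miR-27b, a repressor of PAX3, at a log2 fold change of -0.14 (edgeR QL FDR = 0.0550). Of 6 miRNAs that oppose differentiation or fall during it, 2 were lower past both thresholds, where the background is 5.28%, and 0 were higher. These were miR-221 and miR-222, which repress the cell cycle inhibitor p27, at log2 fold changes of -1.52 and -1.36. miR-221 and miR-222 belong to one cluster, and so may not count as separate members of the list. All 6 had a log2 fold change below 0, with a median of -0.43, and 124 of the 284 tested miRNAs were below 0 too. At FDR alone 3 of the 6 passed, a share near the 44% of all tested miRNAs.

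Markers of other cell types were read beside the muscle miRNAs. The epithelial miRNAs were abundant in both lines, with the 7 of them summing to between 25124 and 26471 CPM in CHMm and between 22450 and 23736 CPM in CHMmTAM. miR-200c led them, and 0 of the 7 passed both thresholds. At FDR alone 3 were higher and 2 lower, from miR-205 at a log2 fold change of -0.66 to miR-429 at 0.36. The 5 miRNAs listed for blood summed to between 3.80 and 4.92 CPM in CHMm and to between 6.97 and 8.52 CPM in CHMmTAM, higher in every CHMmTAM library. Of the 3 that could be tested, 0 passed both thresholds and 1, miR-142 of white blood cells, passed FDR alone at a log2 fold change of 0.77. miR-451 at 0.85 (edgeR QL FDR = 0.130) and miR-223 at 0.82 (edgeR QL FDR = 0.219) did not pass, while miR-144 and miR-150 were at 3 counts or fewer in every library. miR-486, which red blood cells share with muscle, was not on the blood list, and it was past both thresholds at 2.40, as was miR-486-3p at 1.74. The part of blood cell RNA in the rise of miR-1 and miR-133 was not tested. The 4 mesenchymal and smooth muscle miRNAs, miR-143, miR-145, miR-199 and miR-214, summed to between 39.7 and 47.6 CPM in CHMm and to between 23.8 and 28.8 CPM in CHMmTAM. Most of that sum was miR-199, which was lower at a log2 fold change of -0.85 and passed FDR alone. miR-143 at 0.54 (edgeR QL FDR = 0.129), miR-145 at -0.17 and miR-214 at -0.55 did not pass. Endothelial miR-126 had 0 counts in CHMm and 1, 3 and 1 in CHMmTAM, and neuronal miR-124 had 1 count in all. miR-9, also of the nervous system, was at a log2 fold change of -0.06, and miR-122 of the liver was at 0.47 (edgeR QL FDR = 0.168).

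**Figure D5:**
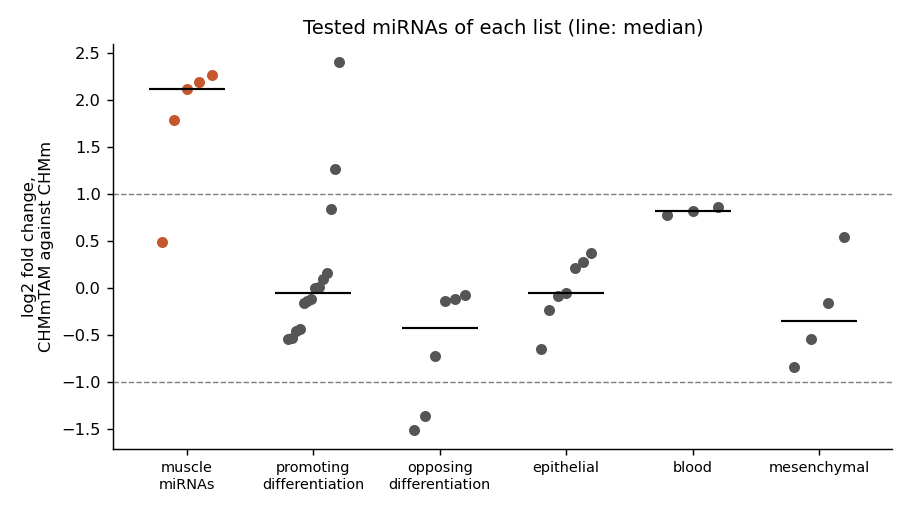
Fitted log2 fold change of CHMmTAM against CHMm (y axis) for the tested miRNAs of 6 lists (x axis), with 1 point per miRNA, a line at the median of each list and dashed lines at -1 and 1. The muscle miRNAs have a median of 2.11, the miRNAs promoting and opposing differentiation have medians of -0.06 and -0.43, and the blood miRNAs lie between 0.77 and 0.85.

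The miRNAs whose pattern was most like that of miR-1 were sought by Pearson correlation of log2(CPM + 0.5) over the 6 libraries among 209 other miRNAs with a mean of at least 1 CPM. The 5 closest were miR-8826, miR-486, miR-2387, miR-181a and miR-345, with r between 0.986 and 0.996. All 5 were higher in CHMmTAM, at log2 fold changes of 6.51, 2.40, 1.09, 1.26 and 0.55 in this order. miR-8826 was read 2, 0 and 0 times in CHMm, against 91, 93 and 59 times in CHMmTAM. Its mean thus reached 1 CPM only through CHMmTAM, and the size of its change is uncertain. With 3 libraries in each of 2 lines, all of these points share the step between the lines, and the correlation is given as a description.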

How the data were processed

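Small RNA was sequenced in 3 libraries each of CHMm and CHMmTAM. Per the labels, total RNA was extracted with Trizol, miRNA was purified and libraries were run on HiSeq. The authors deposited whole-number read counts for each mature miRNA of the dog, which were not normalized. The submitters' processing notes name BWA, HISAT2 2.0.4 and CanFam3.1 without roles. The miRNA database, size limits and rules for reads matching more than 1 miRNA are not given in the sources used here, and they could move counts between relatives such as miR-133a and miR-133c.

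The counts were analysed with edgeR 4.0.16 in R 4.3.3, with a minimum total of 10 counts, TMM factors and the quasi-likelihood test without a block. The standard error was taken as the log2 fold change divided by the square root of F. Exact permutation tests and Wilson intervals (95%) used SciPy 1.17.1 in Python 3.11.15. Alternatives were RLE and upper-quartile factors, library totals, DESeq2 1.42.0, other filters and thresholds, summed miR-133a and miR-133c, 1 count added to the ratios, a replicate block and each library left out.

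Within a line, chi-square values of library pairs were between 26.3 and 85.8 for each degree of freedom, and no library was treated as a duplicate. Tested on simulated data (20 draws of 284 miRNAs, 60 changed by 2 on the log2 scale), the fit recovered 88.8% of the changed miRNAs including 100% of the ones from 1 CPM upwards, and made 0.6 false calls in a draw. The simulated counts were drawn with the dispersions of the fit itself, so they do not measure error from differences between separate cultures. All 8 miRNAs, and the lists of other miRNAs, were chosen with earlier results of these data known. The miRNAs named are the 8 members, the listed miRNAs past both thresholds, the most abundant or absent ones of each list and the 5 closest to miR-1; other listed miRNAs were named after their values were seen. Gene names and neighbors came from RefSeq, where all 8 were matched.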

Additional observations from a re-analysis of the deposited data

How the results depend on the processing

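The call of miR-1, miR-133a and miR-133c kept its direction and side of the thresholds in every alternative that fitted them, with log2 fold changes from 1.94 to 2.27, 1.87 to 2.25 and 2.02 to 2.40. The size of their FDR was less stable. It was highest without CHMm replicate 1, at 3.39e-07, 2.83e-06 and 2.57e-07 in the same order (edgeR QL). miR-133b ranged from 1.55 to 2.14 and lost its call only in the test against a 2-fold change (1.79, FDR = 0.278 from edgeR's glmTreat). miR-499 passed with FDR alone (0.48). Of all tested miRNAs, 32 passed both thresholds, 125 passed FDR alone (72 of them higher) and 21 the test against a 2-fold change (11 higher). Upper-quartile normalization called 34, of which 12 were higher, against 17 higher of 32 with TMM. It also lowered the difference in the summed level of the myosin-intron miRNAs from 112 to 55.6 CPM. The difference in the log2 ratio of miR-133a to miR-1 changed sign to 0.025 when miR-133c was added to miR-133a, and with 1 library left out it ran from -0.27 to 0.20, so its sign is not determined. With the replicate number as a block, the same 4 of the muscle miRNAs passed, with miR-133b at 1.82 and miR-499 at 0.48, and no call among them changed. Deviations of same-numbered libraries correlated at 0.06, 0.46 and -0.31. They showed no steady pairing by number, but so few values cannot settle whether the numbers pair the libraries. Depth limits miR-206, miR-208a and miR-208b, for which a difference was not detectable.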
